A study of Rattus norvegicus with 4 samples.

Results

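The nuclear-encoded genes of mitochondrial oxidative phosphorylation were examined in RT4D6 cells, a rat Schwannoma line with glial characteristics, after transfection with siRNA for 48 h. One group received the wild type Sox10 siRNA, which is specific for Sox10, and the other a mutant Sox10 siRNA that served as control, so that all cells were of the same line and all were transfected. RNA of 2 cultures per group was hybridised to 4 one-colour Affymetrix rat arrays, 1 per culture, and the submitters describe the cultures as 2 sets of paired cells. The genes were chosen by symbol: all that begin with Nduf (complex I), Sdha to Sdhd (complex II), Uqcr (complex III), Cox4 to Cox8 (complex IV) or Atp5 (complex V). This gave 86 of the 14217 genes with a single symbol on the array, 42, 4, 7, 17 and 16 in complexes I to V, each represented by its brightest probe set. The choice by symbol also takes in assembly factors of complex I and the pseudogene Cox6c-ps1, and it leaves out the subunits encoded by mitochondrial DNA.

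Complex I oxidises NADH, complex II oxidises succinate as part of the citric acid cycle, and both hand electrons through ubiquinone to complex III, which passes them by cytochrome c to complex IV, where oxygen is reduced. Complexes I, III and IV pump protons across the inner mitochondrial membrane, and complex V uses the returning protons to make ATP. Most subunits come from nuclear genes that almost every cell type transcribes, while several complex IV subunits have additional muscle, lung or germ cell isoforms.

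The signal of Sox10 was 163 and 335 in wild type siRNA cells, against 2873 and 2890 in mutant siRNA cells, a log2 fold change of -3.54 (limma, adjusted p = 0.0013). Of the Schwann cell and glial markers, 6 of 6 on the array passed as lower, with summed signals of 3023 and 4115 in wild type siRNA cells and 22950.0 and 16190.0 in mutant siRNA cells. Among 9 markers of dividing cells 8 passed as lower (sums 14370.0 and 23260.0 against 47280.0 and 48690.0), and 3 of 5 tested smooth muscle markers passed as higher (sums over all 8 on the array 32540.0 and 44380.0 against 6833 and 12410.0). The smooth muscle list was not uniform: Tagln, Myl9 and Acta2 passed, whereas Smtn had 280 and 401 against 522 and 771 (log2 -0.84, adjusted p = 0.0633) and Des, not tested, 30.6 and 53.3 against 62.8 and 96.6. The 5 macrophage markers summed to 1000 and 867 against 532 and 904, and the 3 endothelial markers to 294 and 183 against 134 and 128. In each of the last lists 1 marker was bright enough to be tested, and it did not pass. The glial, dividing cell and smooth muscle lists moved with the same contrast as the oxidative phosphorylation genes, and their part in the results was not tested. Fewer cells of a type and less RNA per cell cannot be told apart in such bulk samples.

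Oxidative phosphorylation genes were higher on average in cells with the wild type siRNA. Of the 86 genes, 80 passed the filter on low signals and were tested, and of these 30 (37.5%) were higher and 0 lower at an adjusted p under 0.05, whereas 14.6% of all 16125 probe sets tested were higher and 12.1% lower. At an unadjusted p under 0.05, 43 of the 80 were higher and 0 lower by limma, and 24 were higher and 1 lower by the t-test named in the study's methods, which called 0 in either direction after adjustment. The median log2 fold change was 0.42, or 1.34-fold, against 0.13 over all probe sets tested. The single genes ran between -0.12 and 1.54, with 75 above 0 and 73 above the median of all probe sets. Both wild type siRNA arrays were above both mutant siRNA arrays for 67 of the 80 genes (83.8%, against 40.4% of all probe sets), and below both for 2 (against 28.3%).

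**Figure D1:**
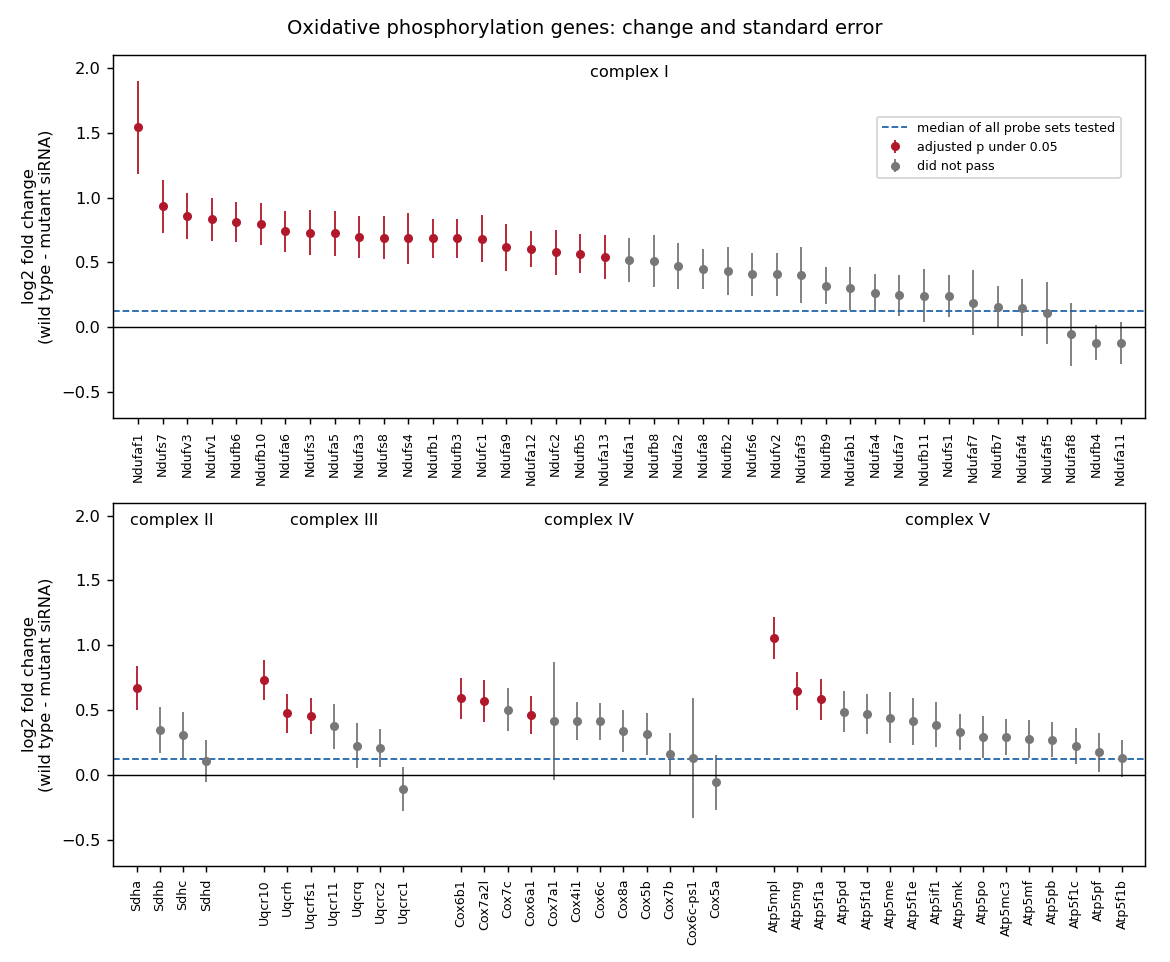
Log2 fold change (wild type minus mutant siRNA, vertical axis) of the 80 tested genes, grouped by complex, with bars of 1 standard error from the limma fit of 2 arrays against 2. Red points passed at an adjusted p under 0.05, grey points did not, and the dashed line is the median over all probe sets tested, 0.13. The 30 genes that passed all lie above it.

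The count of calls rested on the arrays more than the median did. It was 11 without wild type replicate 1, 23 without wild type replicate 2, 8 without mutant replicate 1 and 3 without mutant replicate 2. In the last of these fits 3.75% of the genes were higher, against 5.73% of all probe sets, and in a fit without the intensity trend 1 gene (1.25%) was higher, against 7.3% of all probe sets. In the other fits with 1 array left out, a larger share of the genes than of all probe sets was higher. With any 1 array left out, fewer of all probe sets were higher than in the main fit, too. The median of the genes stayed above that of all probe sets in all of these fits, by 0.22 to 0.43. Ndufb6 and Atp5mpl passed with any single array left out, and 5 of the 30 genes passed in none of the 4 such fits. Relative to each gene's own mean, the median gene stood at 0.25 and 0.15 (log2) in wild type siRNA cells and at -0.11 and -0.33 in mutant siRNA cells, so that the 2 mutant siRNA arrays differed more from each other than the 2 wild type siRNA arrays did. Over all probe sets tested the same medians were 0.06 and 0.08 against -0.03 and -0.06. The signal ratio of the 3' to the 5' actin control was 1.54 and 1.39 in wild type siRNA cells, against 1.87 and 1.52 in mutant siRNA cells, so that the groups overlapped. The same ratios for Gapdh were 1.11 and 1.10 against 1.06 and 1.07, higher in wild type siRNA cells without overlap. Their part in the result was not tested.

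**Figure D2:**
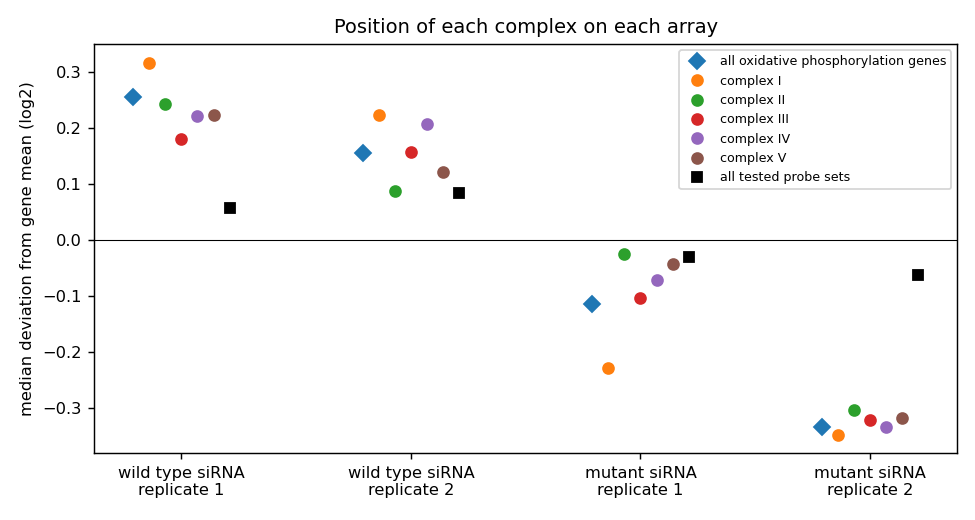
Median deviation from each gene's mean over the 4 arrays (log2, vertical axis) for all tested oxidative phosphorylation genes, for each complex and for all tested probe sets, by array. Every complex lies above 0 on both wild type siRNA arrays and below 0 on both mutant siRNA arrays, and mutant replicate 2 lies lowest, at -0.33 for all the genes.

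The genes were bright ones, with 67 of the 80 among the 1612 probe sets in the top 10% by mean signal. In that top 10% as a whole, 22.1% of probe sets were higher and 10.1% lower, with a median log2 fold change of 0.17, and of the 67 genes 27 (40.3%) were higher, with a median of 0.43.

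Because the genes moved in one direction on average, their promoters were read in RefSeq (build GRCr8) from 250 bases before to 50 bases after the gene start, which was possible for 73 of the 80 tested genes, 29 of them higher. The motifs CTTCCGG (the ETS core bound by GABP), GCGCATGC (letters found in the site of NRF1) and AAGATGGC (YY1) were searched on both strands, as was ACAAT, the core bound by Sox proteins. No matches of different motifs overlapped in these promoters. CTTCCGG was present in 22 of 73 (30.1%) against 8.75% of all 33469 rat promoters of this length, AAGATGGC in 16 (21.9%) against 3.17%, GCGCATGC in 9 (12.3%) against 2.47%, and ACAAT in 16 (21.9%) against 33.7%. Among the 29 genes that were higher the shares were 24.1%, 17.2%, 6.9% and 24.1%, and among the other 44 they were 34.1%, 25%, 15.9% and 20.5%, so that the first 3 motifs were no more frequent in the genes that passed. Such matches are letters in a sequence and were not tested as sites. The 33469 promoters were not limited to genes tested here and were not matched for signal. These 4 stretches, from genes that were higher in wild type siRNA cells, show CTTCCGG or its complement in capitals just upstream of the start, at chr3:127104021-127104080 (minus strand), chr1:210573699-210573758 (minus), chr18:73567447-73567506 (plus) and chr5:134790936-134790995 (minus).
Ndufaf1: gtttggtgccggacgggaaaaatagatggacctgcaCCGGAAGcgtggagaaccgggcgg
Ndufs8: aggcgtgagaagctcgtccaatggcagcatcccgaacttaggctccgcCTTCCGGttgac
Atp5f1a: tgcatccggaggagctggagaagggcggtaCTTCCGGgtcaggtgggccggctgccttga
Uqcrh: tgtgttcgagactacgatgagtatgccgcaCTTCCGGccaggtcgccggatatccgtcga

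The YY1 motif lay downstream of the gene start, within the 50 bases searched there, in these 4 complex I genes that were higher, and is shown in capitals for comparison of its surroundings, at chr7:10110476-10110505, chr2:47794892-47794921, chr1:74515524-74515553 and chr7:115750284-115750313 (all on the minus strand). The motif contains the letters ATG, and whether it overlaps coding sequence was not tested.
Ndufs7: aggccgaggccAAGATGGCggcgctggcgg
Ndufs4: ttgcccacaggAAGATGGCggcggtctcaa
Ndufa3: tgtccaagaccAAGATGGCtgctagtaagt
Ndufa6: gcttccttagcAAGATGGCggccgcggcca

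In Uqcr10, which was also higher, the Sox core occurred 4 times in a stretch of 170 bases that ends 51 bases before the start (chr14:83791965-83792134, minus strand), as ACAAT or as its complement, in capitals.
Uqcr10: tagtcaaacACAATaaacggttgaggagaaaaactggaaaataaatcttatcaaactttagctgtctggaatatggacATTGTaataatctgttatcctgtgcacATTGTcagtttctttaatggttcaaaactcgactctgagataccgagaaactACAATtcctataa

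Complex I had the largest share of genes that passed, 20 of 41 tested (48.8%, against 14.6% of all probe sets), with a median log2 fold change of 0.52. Of 6 core subunits, which carry the flavin and the iron-sulfur clusters on the way from NADH to ubiquinone, 4 were higher, with a median of 0.71. Ndufs7, which holds the last iron-sulfur cluster before ubiquinone, had signals of 5763 and 3975 in wild type siRNA cells and 2841 and 2472 in mutant siRNA cells, a 1.91-fold difference (log2 0.93 ± 0.21 SE, limma adjusted p = 0.0143). Ndufv1, which binds NADH and the flavin, had 6515 and 5600.3 in wild type siRNA cells and 3828 and 3357 in mutant siRNA cells (log2 0.83 ± 0.17, adjusted p = 0.0104). Ndufs3, another core subunit of the peripheral arm, had 4198 and 3506 against 2549 and 2345 (log2 0.73 ± 0.17, adjusted p = 0.0191). Ndufs8, an iron-sulfur protein like Ndufs7, had 4253 and 3876 against 2774 and 2547 (log2 0.69 ± 0.17, adjusted p = 0.0197). In these 4 genes the 2 groups of arrays did not overlap. The other core subunits did not pass: Ndufs1, with 4893 and 4294 against 4247 and 3947 (log2 0.24, adjusted p = 0.29), and Ndufv2, with 7051 and 5534 against 5093 and 4850 (log2 0.41, adjusted p = 0.103). Without mutant replicate 2 none of the 4 core calls held (adjusted p 0.0675 for Ndufv1, 0.0816 for Ndufs7, 0.106 for Ndufs3 and 0.111 for Ndufs8). Without wild type replicate 1 those of Ndufs7 (0.0546), Ndufs3 (0.0745) and Ndufs8 (0.0635) were lost, and without mutant replicate 1 those of Ndufs3 (0.063) and Ndufs8 (0.0636).

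The accessory subunits, which surround the core and are needed for its assembly and stability, were higher in 15 of 29 tested, with a median of 0.54. Ndufv3 had signals of 4772 and 4552 in wild type siRNA cells and 2994 and 2469 in mutant siRNA cells (log2 0.86 ± 0.18, limma adjusted p = 0.0112). Its second probe set had 585 and 412 against 286 and 297 and also passed (log2 0.83, adjusted p = 0.0441). Ndufb6, a subunit of the membrane arm, had 7063 and 6312 against 4001 and 4051 (log2 0.81 ± 0.15, adjusted p = 0.00848), and its adjusted p stayed between 0.0104 and 0.0471 with any array left out. Ndufb10, of the same arm, had 6210 and 5349 against 3500 and 3512 (log2 0.80, adjusted p = 0.0101). Without mutant replicate 2 the adjusted p was 0.0737 for Ndufv3 and 0.0552 for Ndufb10, and without mutant replicate 1 it was 0.052 for Ndufb10. By family, 6 of 12 Ndufa, 5 of 11 Ndufb and 2 of 2 Ndufc subunits tested were higher. At the other end of the complex, Ndufb4 had 12070.3 and 12689 in wild type siRNA cells and 13609 and 14764 in mutant siRNA cells (log2 -0.12, adjusted p = 0.552), so that here both wild type siRNA arrays lay below both mutant siRNA arrays. Ndufa11 had 4657 and 4149 against 5362 and 4755 (log2 -0.12, adjusted p = 0.609). Ndufa4, which carries a complex I name but is now assigned to complex IV, had 14290.1 and 13111 against 13042 and 11092 (log2 0.27, adjusted p = 0.21).

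The 6 assembly factors, which help to build complex I and are not part of it, had a median of 0.17. Of these 1 was higher (16.7%, near the 14.6% of all probe sets). This was Ndufaf1, an early assembly factor that had the largest log2 fold change of all 80 genes, with signals of 536 and 435 in wild type siRNA cells and 122 and 251 in mutant siRNA cells (log2 1.54 ± 0.36, limma adjusted p = 0.017). The 2 mutant siRNA arrays stood far apart for this gene, and without mutant replicate 1 the log2 fold change was 1.04 with an adjusted p of 0.0754. The log2 fold changes of the other 5, Ndufaf3, Ndufaf4, Ndufaf5, Ndufaf7 and Ndufaf8, were 0.40, 0.15, 0.11, 0.19 and -0.05.

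**Figure D3:**
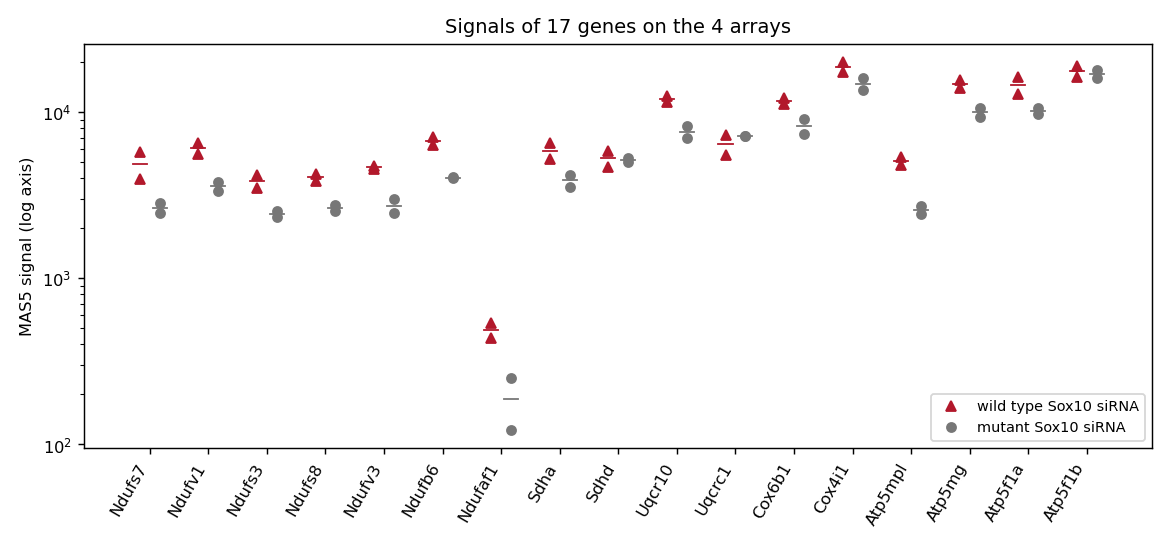
MAS5 signals on a log axis of 17 genes of complexes I to V on each array, with triangles for the 2 wild type siRNA arrays, circles for the 2 mutant siRNA arrays and a line at each group's mean. The groups separate for Ndufb6 (6312 and 7063 against 4001 and 4051) and Atp5mpl, and overlap for Sdhd, Uqcrc1 and Atp5f1b.

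Complex II has 4 subunits, all of which were tested, and 1 was higher (25%, against 14.6% of all probe sets). Sdha, the flavoprotein that oxidises succinate, had 6495 and 5251 in wild type siRNA cells and 3573 and 4195 in mutant siRNA cells, a 1.59-fold difference (log2 0.67 ± 0.17, limma adjusted p = 0.0236). Sdhb, the iron-sulfur subunit, had 7333 and 6356 against 6409 and 4992 (log2 0.35, adjusted p = 0.175), and of the membrane anchors Sdhc had 9007 and 7775 against 8137 and 6233 (log2 0.31, adjusted p = 0.222). The other anchor, Sdhd, had 5880 and 4709 against 5026 and 5272 (log2 0.11, adjusted p = 0.644), and its second probe set gave 0.19. The groups overlapped for the brighter probe set of Sdhd. The Sdha call was lost without wild type replicate 1 (adjusted p = 0.106), mutant replicate 1 (0.126) or mutant replicate 2 (0.0635).

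In complex III 3 of 7 genes were higher (42.9%, against 14.6% of all probe sets), and the median was 0.38. Uqcr10, one of the smallest subunits, had 12475 and 11527 in wild type siRNA cells and 8297 and 7010.3 in mutant siRNA cells (log2 0.73 ± 0.15, limma adjusted p = 0.0121). Uqcrh, the hinge protein beside cytochrome c1, had 12461 and 13008 against 10396 and 8966 (log2 0.48, adjusted p = 0.0475), and Uqcrfs1, the Rieske iron-sulfur protein, had 11066 and 10142 against 7909 and 8391 (log2 0.46, adjusted p = 0.043). Both lay close to the threshold, and neither passed when any 1 array was left out (adjusted p 0.0749 to 0.24 for Uqcrh and 0.0896 to 0.176 for Uqcrfs1). The call of Uqcr10 was lost without mutant replicate 2 (0.0764). The core proteins did not pass: Uqcrc1 had 7280 and 5541 against 7193 and 7239 (log2 -0.11, adjusted p = 0.667), and Uqcrc2 gave 0.21 at one probe set and -0.09 at the other. Cyc1, cytochrome c1 itself, which the choice by symbol left out, had a log2 fold change of 0.22 (adjusted p = 0.313).

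Complex IV had 17 genes, of which 12 were tested and 3 were higher (25%, against 14.6% of all probe sets). The median was 0.42. Cox6b1, which joins the monomers of the dimeric enzyme, had 12155 and 11248 in wild type siRNA cells and 9075 and 7398 in mutant siRNA cells (log2 0.59 ± 0.16, limma adjusted p = 0.0286). Cox7a2l, which links complexes III and IV, had 6901 and 6054 against 4895 and 4327 (log2 0.57 ± 0.16, adjusted p = 0.0337). Cox6a1, the liver-type isoform, had 13953 and 13289 against 11219 and 9671 (log2 0.47, adjusted p = 0.0477), and this call was lost with any array left out (0.0733 to 0.243). Those of Cox6b1 and Cox7a2l were lost without wild type replicate 1 (0.0973 and 0.133) and without mutant replicate 2 (0.166 and 0.179), that of Cox6b1 also without wild type replicate 2 (0.0539) and that of Cox7a2l also without mutant replicate 1 (0.0748). Cox4i1, the ubiquitous form of subunit 4, had 19974 and 17418 against 15991 and 13597 (log2 0.42, adjusted p = 0.0674). Cox8a, the ubiquitous form of subunit 8, gave 0.34 (adjusted p = 0.14).

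The tissue isoforms of complex IV were dim on all arrays, and 5 of them were not tested. Cox4i2, the lung form, had signals of 10.2 and 2.2 in wild type siRNA cells and 18.5 and 17.9 in mutant siRNA cells. The heart and muscle form Cox6a2 had 13.3 and 10.1 against 30.4 and 32.3, and Cox8b had 65.1 and 11.2 against 4.9 and 3.6. All of these lie under the array medians, which were 105 and 101 against 108 and 110.4. Cox6b2 and Cox7b2, known from testis, were at 12.6 to 24.7 and 64.3 to 81.3 in wild type siRNA cells and at 11.9 to 14.2 and 44.0 to 66.5 in mutant siRNA cells. Ndufa4l2, a relative of Ndufa4, was also untested, at 40.6 and 49.2 against 59.5 and 53.5. Cox7a1, the muscle form of subunit 7a, was near the array median at 116 and 135 against 102 and 95.3, and its log2 fold change of 0.42 had a standard error of 0.45 (adjusted p = 0.519).

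In complex V 3 of 16 genes were higher (18.8%, near the 14.6% of all probe sets). The median was 0.36, and all 16 log2 fold changes were above the median of all probe sets tested. Atp5mpl, a small proteolipid of the membrane part, had 5351 and 4787 in wild type siRNA cells and 2432 and 2716 in mutant siRNA cells, a 2.08-fold difference (log2 1.06 ± 0.16, limma adjusted p = 0.00431). It was the second largest change among the 80 genes, and its adjusted p stayed between 0.00334 and 0.0332 with any array left out. Atp5mg, subunit g of the membrane part, had 15710.4 and 13935 against 10652 and 9316 (log2 0.65 ± 0.15, adjusted p = 0.0157). Atp5f1a, the alpha subunit of the catalytic head, had 16317 and 12830.4 against 10566 and 9825 (log2 0.58 ± 0.16, adjusted p = 0.0268). Its partner Atp5f1b, the beta subunit that holds the catalytic sites, had 18901 and 16405 against 17990.1 and 16050.4 (log2 0.13, adjusted p = 0.518). The 2 subunits, which alternate in the same ring, thus gave unlike values, though the difference between them was not tested. The call of Atp5mg was lost without wild type replicate 1 (0.0721) or mutant replicate 2 (0.0952), and that of Atp5f1a without wild type replicate 1 (0.161), mutant replicate 1 (0.0733) or mutant replicate 2 (0.13). Atp5if1, the inhibitor of the enzyme, had a log2 fold change of 0.39 (adjusted p = 0.128), and Atp5mc3, a gene for the membrane ring, 0.30 (adjusted p = 0.147).

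Other genes of the mitochondrion gave a mixed picture around these complexes, and their counts stand against the same 14.6% of all probe sets higher and 12.1% lower. Of 42 electron carriers and assembly factors outside the named families 17 (40.5%) were higher and 0 lower (also 0 at an unadjusted p under 0.05), with a median of 0.47. Atpaf1, an assembly factor of the complex V head, had 1088 and 981 in wild type siRNA cells and 386 and 521 in mutant siRNA cells (log2 1.28, limma adjusted p = 0.00683), but its second tested probe set gave -1.03 (adjusted p = 0.0785), so that the probe sets disagreed. Sdhaf2, which attaches the flavin to Sdha, gave 1.16 (adjusted p = 0.00853, and 0.0568 without mutant replicate 1). Of 73 mitochondrial ribosomal proteins 20 (27.4%) were higher and 0 lower (1 at an unadjusted p under 0.05), with a median of 0.42 (11 higher after quantile normalization, and 1 lower under that or no further scaling), among them Mrpl57 at 1.13 (adjusted p = 0.00841, and 0.0539 without mutant replicate 2). Of 22 genes of protein import 9 (40.9%) were higher and 0 lower (also 0 at an unadjusted p under 0.05), with a median of 0.56. Timm8b, a chaperone of the intermembrane space, had 9857 and 9236 against 2305 and 3573, a 3.51-fold difference (log2 1.81 ± 0.21, adjusted p = 0.00203), which passed with any array left out. With mutant replicate 2 left out, 3 carriers and assembly factors, 4 ribosomal proteins and 4 import genes were higher, when 5.73% of all probe sets were. With mutant replicate 1 left out these counts were 7, 2 and 4 (6.24% of all probe sets), and with wild type replicate 1 left out 9 carriers and assembly factors and 5 ribosomal proteins were higher (8.6% of all probe sets). By the methods' t-test with adjustment 0 were called in any of these lists.

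The citric acid cycle and pyruvate dehydrogenase genes were divided, with 4 of 15 higher (26.7%), 1 lower (6.67%) and a median of 0.33, and the number higher was 2 without wild type replicate 1 or mutant replicate 1 and 0 without mutant replicate 2. Idh3b, a subunit of isocitrate dehydrogenase, gave 0.97 (limma adjusted p = 0.00995) and Dld, shared by several dehydrogenases, 0.82 (adjusted p = 0.00968), and both calls were lost without mutant replicate 2 (0.0642 and 0.0598). Cs, citrate synthase, had 2082 and 2441 in wild type siRNA cells and 5091 and 5661 in mutant siRNA cells at its brightest probe set (log2 -1.17, adjusted p = 0.00393). A second probe set of Cs was also lower (-1.30, adjusted p = 0.00829), but the third that was tested was higher (0.64, adjusted p = 0.0274), so that the direction of this gene depends on the probe set. Among nucleotide, phosphate and outer membrane carriers 1 of 7 was higher and 1 lower (14.3% each), near the shares over all probe sets. The lower one, Ucp2, an uncoupling protein of the inner membrane, had 637 and 830 against 2061 and 1869 (log2 -1.35, adjusted p = 0.00508) and passed with any array left out. The higher one, Vdac1, the channel of the outer membrane, gave 0.64 (adjusted p = 0.036) and did not pass without wild type replicate 1 (0.124) or mutant replicate 1 (0.203), and no carrier was higher without further scaling or after quantile normalization.

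Among 15 regulators of mitochondrial gene expression 3 were higher (20.0%) and 2 lower (13.3%), with a median of 0.37, and these shares too are near those over all probe sets. Only 1 was higher without further scaling, after quantile normalization, or without wild type replicate 1, mutant replicate 1 or mutant replicate 2. Tfam, the factor that packages and transcribes mitochondrial DNA, had 653 and 827 in wild type siRNA cells and 1577 and 2015 in mutant siRNA cells (log2 -1.20, limma adjusted p = 0.00828, and 0.0604 without mutant replicate 2). Gabpa, the DNA-binding subunit of GABP, had 340 and 627 against 1097 and 968 (log2 -1.08, adjusted p = 0.0351), a call lost without wild type replicate 1 (0.123), mutant replicate 1 (0.152) or mutant replicate 2 (0.0975). Both had lower signals in wild type siRNA cells, where the 30 genes above had higher ones, and a link between them was not tested. Polg2, the accessory subunit of the mitochondrial DNA polymerase, had 874 and 793 against 300 and 360 (log2 1.42, adjusted p = 0.00457) and passed with any array left out. Nrf1 gave -0.30 (adjusted p = 0.42). Yy1 gave 0.55 (adjusted p = 0.036), which was lost with any array left out (0.0788 to 0.189), and 0.45 at a second probe set (adjusted p = 0.371).

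Glycolysis, the cytosolic route to pyruvate and lactate, had 2 of 17 genes higher (11.8%) and 3 lower (17.6%), near the shares over all probe sets, with a median of 0.08, and 0 or 1 lower without wild type replicate 1 or either mutant replicate. Eno2, the neuronal enolase, gave 1.24 (limma adjusted p = 0.012, and 0.0741 without mutant replicate 1). Slc16a1, a lactate transporter, gave -0.99 (adjusted p = 0.0109) and Pgk1, phosphoglycerate kinase, -0.88 (adjusted p = 0.0176), of which the first was lost without mutant replicate 1 (0.0554) or mutant replicate 2 (0.0681) and the second without wild type replicate 1 (0.0757), mutant replicate 1 (0.0771) or mutant replicate 2 (0.0699). Cytosolic ribosomal proteins, a list added after its values had been seen, had 0 of 40 higher and 0 lower, with a median of 0.04, and 0 had an unadjusted p under 0.05 by limma or by the methods' t-test. Most of them were brighter than the oxidative phosphorylation genes, so that the lists are not matched for signal. Rpl39 (360 and 338 against 213 and 276) and Rps13 (146 and 145 against 154 and 56.4) were dimmer. They had the largest log2 fold changes of the list, 0.60 and 0.725.

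**Figure D4:**
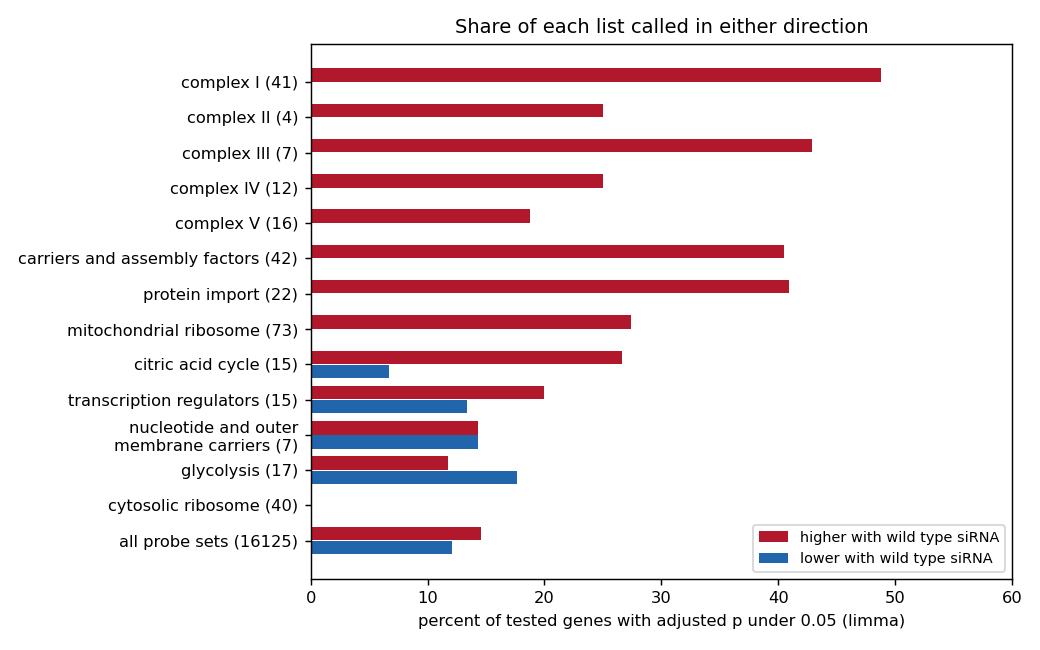
Percent of tested genes in each list with an adjusted p under 0.05 by limma (horizontal axis), red for higher and blue for lower with the wild type siRNA, with the number tested in parentheses. Complex I reaches 48.8% higher, and complex V 18.8%, near the 14.6% of all probe sets. No gene of complexes I to V was lower.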

How the data were processed

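RNA of 4 RT4D6 cultures (2 per siRNA) was measured. The authors deposited intensity values, MAS5 signals on a linear scale with the 2% trimmed mean of each array at 500.2. Per the labels only MAS5 is named, with no version, and the median normalization and filters of the study's methods are not in these values. The signals, without 57 control probe sets, were log2-transformed, and the median over the 31042 probe sets of an array was subtracted. Probe sets at or above the median on at least 2 of 4 arrays were tested with limma 3.58.1 (R 4.3.3; lmFit, eBayes with an intensity trend, wild type minus mutant siRNA) and Benjamini-Hochberg adjustment over all 16125. Precision is limited by the number of arrays. P-values rest only on the spread between cultures, 2 per group, which limma draws toward that of probe sets with similar signal. The methods' t-test uses each probe set's own spread.

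Platform annotation gave a single symbol for 20826 probe sets, several for 436 and none for 9780. A gene was represented by its probe set with the highest mean log2 signal. All 86 genes were found in RefSeq by gene ID. The text names, per complex, up to 3 genes at either end among those that passed, all Sdh genes, tissue isoforms, up to 2 genes at either end of each other list, and Sox10. Further genes (the other complex I core subunits, Ndufb6, Ndufb10, Ndufb4, Ndufa11, Ndufaf3 to Ndufaf8, Uqcrc1, Uqcrc2, Cyc1, Atp5f1b, Atp5if1, Nrf1, Yy1) were named for their role or position after their values were seen. Members and lists were chosen with earlier results of these data known. Alternatives were other scalings, filters, a floor at the 25th percentile, no trend, the methods' t-test, a replicate block and each array left out.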

Additional observations from a re-analysis of the deposited data

Results flagged for a closer look

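Probe sets annotated with several symbols were outside the comparison of single genes. Among 7 such probe sets that include an oxidative phosphorylation symbol, 1 was higher and 0 lower by limma, and 6 had log2 fold changes above 0. The one that passed, which is not named because it cannot be given to a single gene, had signals of 11181 and 9560.2 in wild type siRNA cells and 7767 and 6842 in mutant siRNA cells, a log2 fold change of 0.58.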

How the results depend on the processing

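Over all probe sets the main counts were 1956 lower and 2348 higher. They were 1187 and 1177 without the intensity trend, and 0 and 2 by the methods' t-test with Benjamini-Hochberg adjustment (1386 and 2444 at an unadjusted p under 0.05, since the study's methods applied no correction), and they ran between 706 and 2519 lower and between 924 and 2128 higher with 1 array left out. For the oxidative phosphorylation genes, against 30 higher, the count was 18 with no filter (all 86 genes), 1 without the trend, 0 by the methods' t-test after adjustment (24 higher and 1 lower at an unadjusted p under 0.05), 23 without further scaling or after quantile normalization, 28 when centred on the median of the probe sets tested (chosen after seeing the data), 31 with the floor and 35 with the stricter filter, and 3 to 23 with 1 array left out. Their median log2 fold change was between 0.33 and 0.56 with 1 array left out. The scalings moved the median of all probe sets from 0.13 to 0.05 (no further scaling) and 0.08 (quantile). Of the 30 genes, 23 passed under all 3 other scalings. The share of the genes higher was 20.9% with no filter (6.1% of all probe sets) and 44.9% with the stricter filter (17.3%). It was 28.8% both without further scaling (12%) and after quantile normalization (12.7%), and 35% with the other centring (14.5%). With the floor it was 38.8% (15.1%), and without the trend 1.25% (7.3%). The replicate number as a block gave 49 higher (61.2%, against 20.5% of all probe sets), the same 30 among them. With the block Cox4i1 (limma adjusted p = 0.00392), Cox8a (0.03), Atp5mc3 (0.0289) and Ndufv2 (0.0303) also passed. The labels do not say that the number marks the pair, and deviations from group means of same-numbered arrays correlated at 0.14 over probe sets. Sox10 kept its log2 fold change of -3.54 but had an adjusted p of 0.184 by the methods' t-test with adjustment. Sdhd changed sign, to -0.0065 after quantile normalization and to -0.022 without wild type replicate 1 (-0.022 to 0.24 with 1 array left out). Over the named genes, 534 of 766 alternative values kept direction and side of the threshold, 226 no longer passed, 4 newly passed and 2 reversed. The cause of these changes was not tested. With 2 arrays per group, dim probe sets such as Cox7a1 had standard errors too large for a difference of this size to pass.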
